A study of Mus musculus with 15 samples.

Results

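The ventricular myosins and their partners described here are 8 genes of the cardiac thick filament: the heavy chains Myh6, Myh7 and Myh7b, the light chains Myl2 and Myl3, the binding proteins Mybpc3 and Mybpc2, and the light chain kinase Mylk3. They were chosen by name, as the rows of the deposited FPKM table whose Ensembl identifier carries one of these symbols in GENCODE M21. Each symbol matched 1 row, so 8 of the 36653 gene identifiers were taken, and all 8 passed the filter on low values (a mean FPKM of at least 0.5). FPKM counts fragments relative to gene length and library size. Levels of different genes can thus be set side by side within a library. Comparisons between libraries also depend on the share that other genes take up.

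Wild-type C57BL/6 mice aged 10 weeks gave ventricle RNA, which was enriched for poly(A) and sequenced in 15 libraries, 5 per group. Mice of the AngII plus OA group had a subcutaneous pump that released angiotensin II at 1000 ng/kg/min and were given OA, taken from the series title to be oleic acid, at 160 mg/kg in a volume of 0.3 mL per day. Mice of the AngII group had that pump and no OA, and mice of the vehicle group had saline. How long the pumps ran is not stated in the labels. The comparisons ask what angiotensin II did to these transcripts and whether OA altered that.

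Angiotensin II is a peptide hormone that raises blood pressure and drives hypertrophy of the heart. A thick filament of heart muscle is built from myosin heavy chains, whose heads split ATP and pull on actin, each carrying an essential and a regulatory light chain, and myosin-binding protein C lies along the filament and tunes the heads. The adult mouse ventricle makes the fast alpha heavy chain of Myh6, whereas the slow beta chain of Myh7 is the fetal form, and a move towards Myh7 is a textbook marker of pathological hypertrophy in rodents.

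Myh6, Myh7 and Myh7b are each the host of a microRNA that lies in an intron of the gene, and these microRNAs are shown because rows for their precursors stand in the table beside the hosts. The mature sequences are from RefSeq on GRCm38.p6, written 5′ to 3′ with the seed (bases 2 to 8) in capitals.
mmu-miR-208a-3p, in Myh6, chr14:54949072-54949093, minus strand: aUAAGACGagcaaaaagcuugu
mmu-miR-208b-3p, in Myh7, chr14:54975710-54975731, minus strand: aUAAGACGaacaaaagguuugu
mmu-miR-499-5p, in Myh7b, chr2:155622893-155622913, plus strand: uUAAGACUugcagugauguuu
The microRNAs of Myh6 and Myh7 had the same seed and differed at 3 of 22 positions, counted from 1 at the 5′ end (G10A, A16G and C18U, with the base of miR-208a first). The microRNA of Myh7b differed from that of Myh6 by 1 base in the seed (G8U).

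The promoters of Myh6 and Myh7 are shown because the level of one against the other is the classical readout of this locus. Both genes lie on the minus strand of chromosome 14, and 3756 bases separate the end of Myh7 from the start of Myh6 in GENCODE M21. Each line holds the 250 bases before the first RefSeq start listed (GRCm38.p6), 5′ to 3′ on the strand of the gene. The RefSeq start of Myh6 lies inside its GENCODE span, which reaches 54966927, so the Myh6 window does too. Capitals mark matches, on either strand, to the MCAT element bound by TEAD factors (CATTCC) and to a direct repeat of the kind bound by the thyroid hormone receptor (AGGNNANNNNAGGNNA).
Myh6, chr14:54966608-54966857: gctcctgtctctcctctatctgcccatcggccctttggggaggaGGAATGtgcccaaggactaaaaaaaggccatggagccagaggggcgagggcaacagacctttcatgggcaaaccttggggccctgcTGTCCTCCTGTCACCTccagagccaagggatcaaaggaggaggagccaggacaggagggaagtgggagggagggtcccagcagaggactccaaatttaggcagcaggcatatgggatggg
Myh7, chr14:54994627-54994876: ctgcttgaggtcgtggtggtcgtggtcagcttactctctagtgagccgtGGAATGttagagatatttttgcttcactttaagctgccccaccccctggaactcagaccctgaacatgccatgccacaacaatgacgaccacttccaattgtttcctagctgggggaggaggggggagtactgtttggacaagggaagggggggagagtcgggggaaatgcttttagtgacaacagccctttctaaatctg
An MCAT match stood in both windows and in those of Myl3 and Mybpc2, so in 4 of the 8 genes, against 12.6% of 27025 mouse promoter windows of the same length. The direct repeat matched in Myh6 and Myh7b, against 2.21% of all windows. Of the other motifs searched on both strands, the TATA box (TATAAA) matched in 0 of the 8 windows (12.97% of all), the GATA motif (AGATAA) in Myh7b, Myl2 and Mylk3 (10.3% of all), the CArG box in Myl3 (1.40% of all) and the single receptor motif (AGGTCA) in Myh7b (13.8% of all). Myh7, Myl2 and Mylk3 have another listed start, where the window of Myh7 held no MCAT match, that of Mylk3 held an MCAT and no GATA match, and that of Myl2 held TATAAA and AGGTCA and no GATA match. A match describes these letters only, and the matches to AGGTCA can overlap the direct repeat.

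FPKM were computed over 24.5 to 28.3 M reads per library, and mitochondrially encoded genes took 34.5% to 50.0% of the summed FPKM. The mean mitochondrial share was 42.4% ± 3.10 in AngII plus OA hearts, 41.1% ± 5.21 in AngII hearts and 47.1% ± 2.52 in vehicle hearts (SD, n = 5 each), which scales all other genes. All 10 markers listed for ventricular cardiomyocytes were detected (Irx4, Mb, Tnni3, Actc1, Tnnt2, Ryr2, Pln, Atp2a2, Csrp3 and Ckm). Whether they are specific to the ventricle was not tested, and Mb alone averaged 9210 to 10350 FPKM by group. Their summed FPKM was 18520 to 24460 in 14 of the libraries. AngII replicate 2 stood apart with 12240. That library also had the highest summed FPKM of the atrial markers (3237, against at most 804.5 in any other library), of the adipocyte markers (297, against at most 113.7), of the mesothelial markers (82.9, against at most 15.8) and of the B cell markers (53.3, against at most 12.1). The part of these other cells in the results below was not tested, and the differences of the 8 genes and of their ratios are given with and without this library where it moves them by over 1.5 times. In bulk tissue, fewer cells of a type and less RNA per cell cannot be told apart.

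The genes spanned a wide range of levels. Over the 15 libraries the mean was highest for Myl2, the regulatory light chain of the ventricle, at 5940.0 FPKM, ahead of Myh6 at 2985 FPKM in 15 of 15 libraries. Myl3, the essential light chain, followed at 2710.0 FPKM and was below Myh6 in 12 of 15 libraries, so these neighbours in the order were not separated in every heart. Mybpc3, the cardiac binding protein, averaged 568 FPKM and lay below Myl3 in 15 of 15. Mylk3, the cardiac kinase that phosphorylates the regulatory light chain, averaged 63.0 FPKM, also below the next higher gene in 15 of 15. Myh7 averaged 40.0 FPKM, below Mylk3 in 12 of 15 libraries. Myh7b, a slow-type heavy chain gene best known as the host of miR-499, averaged 31.4 FPKM, below Myh7 in 12 of 15. Mybpc2, the fast skeletal binding protein, came last at 2.76 FPKM and rested on 106 to 511 reads per library, against 293200 to 601900 for Myh6.

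In AngII against vehicle hearts 0 of the 8 genes were called (limma on log2(FPKM + 1), Benjamini-Hochberg adjusted p under 0.05 over 13121 genes). Across all genes 1.5% were called in AngII against vehicle hearts, 166 higher (1.27%) and 31 lower (0.236%), a split that became 69 and 40 with quantile normalization, 103 and 57 with a median shift, and 77 and 37 when mitochondrial genes were left out of the scaling. At an unadjusted p under 0.05, 1 of the 8 genes passed (Mylk3), against 16.6% of all genes. No gene was called in AngII plus OA against vehicle hearts (0.0%, with 3.36% at an unadjusted p under 0.05) or in AngII plus OA against AngII hearts (0.0%, with 6.6%). Of the 8 genes, 0 and 2 (Myh7 and Myl2) had such an unadjusted p in these comparisons. In no comparison did the libraries of a pair of groups fail to overlap for any of the 8, while 3.8%, 0.838% and 1.27% of all genes did not overlap in AngII against vehicle, AngII plus OA against vehicle and AngII plus OA against AngII.

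Myh6, the main heavy chain, had 3330.0, 3459, 2929, 3349 and 3313 FPKM in AngII plus OA hearts, 2818, 1771, 3004, 2965 and 2925 FPKM in AngII hearts and 3248, 3448, 2773, 2902 and 2533 FPKM in vehicle hearts. Of the AngII plus OA libraries, 4 lay above every AngII library, and AngII replicate 2 was far below the rest. The difference of AngII minus vehicle was -0.16 on the log2 scale (95% interval -0.48 to 0.15, limma adjusted p = 0.623). AngII plus OA minus AngII was 0.31 (interval -0.01 to 0.62, limma adjusted p = 0.737). With AngII replicate 2 left out these differences were -0.02 and 0.16, and the mean of AngII hearts was 2928 ± 80.3 FPKM (SD, n = 4), beside that of vehicle hearts, 2981 ± 367 FPKM (SD, n = 5).

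Myh7, the fetal slow heavy chain, had 49.7, 62.1, 28.7, 59.8 and 40.8 FPKM in AngII plus OA hearts, 24.8, 20.03, 37.5, 34.9 and 42.5 FPKM in AngII hearts and 45.6, 41.1, 39.0, 31.8 and 41.7 FPKM in vehicle hearts. The highest values were thus those of 3 AngII plus OA hearts and the lowest those of 3 libraries of both pump groups, with vehicle hearts in a narrow band between them. The log2 difference of AngII minus vehicle was -0.35 (95% interval -0.82 to 0.12, limma adjusted p = 0.446). The difference of AngII plus OA minus AngII was 0.58 (interval 0.11 to 1.05, limma adjusted p = 0.710), and AngII plus OA minus vehicle 0.23 (interval -0.24 to 0.70, limma adjusted p = 1.0). AngII replicate 2 had the lowest Myh7 of all libraries, and without it AngII minus vehicle was -0.20 (interval -0.65 to 0.24) and AngII plus OA minus AngII 0.43 (interval -0.01 to 0.87).

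Myh7b had 22.0, 33.3, 25.04, 46.8 and 35.8 FPKM in AngII plus OA hearts, 14.5, 0.894, 25.98, 43.7 and 25.8 FPKM in AngII hearts and 63.3, 52.6, 30.9, 20.5 and 29.7 FPKM in vehicle hearts. The groups overlapped widely apart from AngII replicate 2, where Myh7b was at 2.95% of the median of the other 14 libraries. Only 29 of 11172 genes with a median of at least 1 FPKM in those 14 libraries (0.260%) were as low in AngII replicate 2, whereas the other 7 genes were at 42.0% to 70.9% of that median. Between AngII and vehicle hearts it differed by -1.25 log2 units (95% interval -2.59 to 0.09, limma adjusted p = 0.334), and by -0.49 with this library left out. AngII plus OA and AngII hearts differed by 1.05 (interval -0.29 to 2.39, limma adjusted p = 0.753), and by 0.29 without it.

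**Figure D1:**
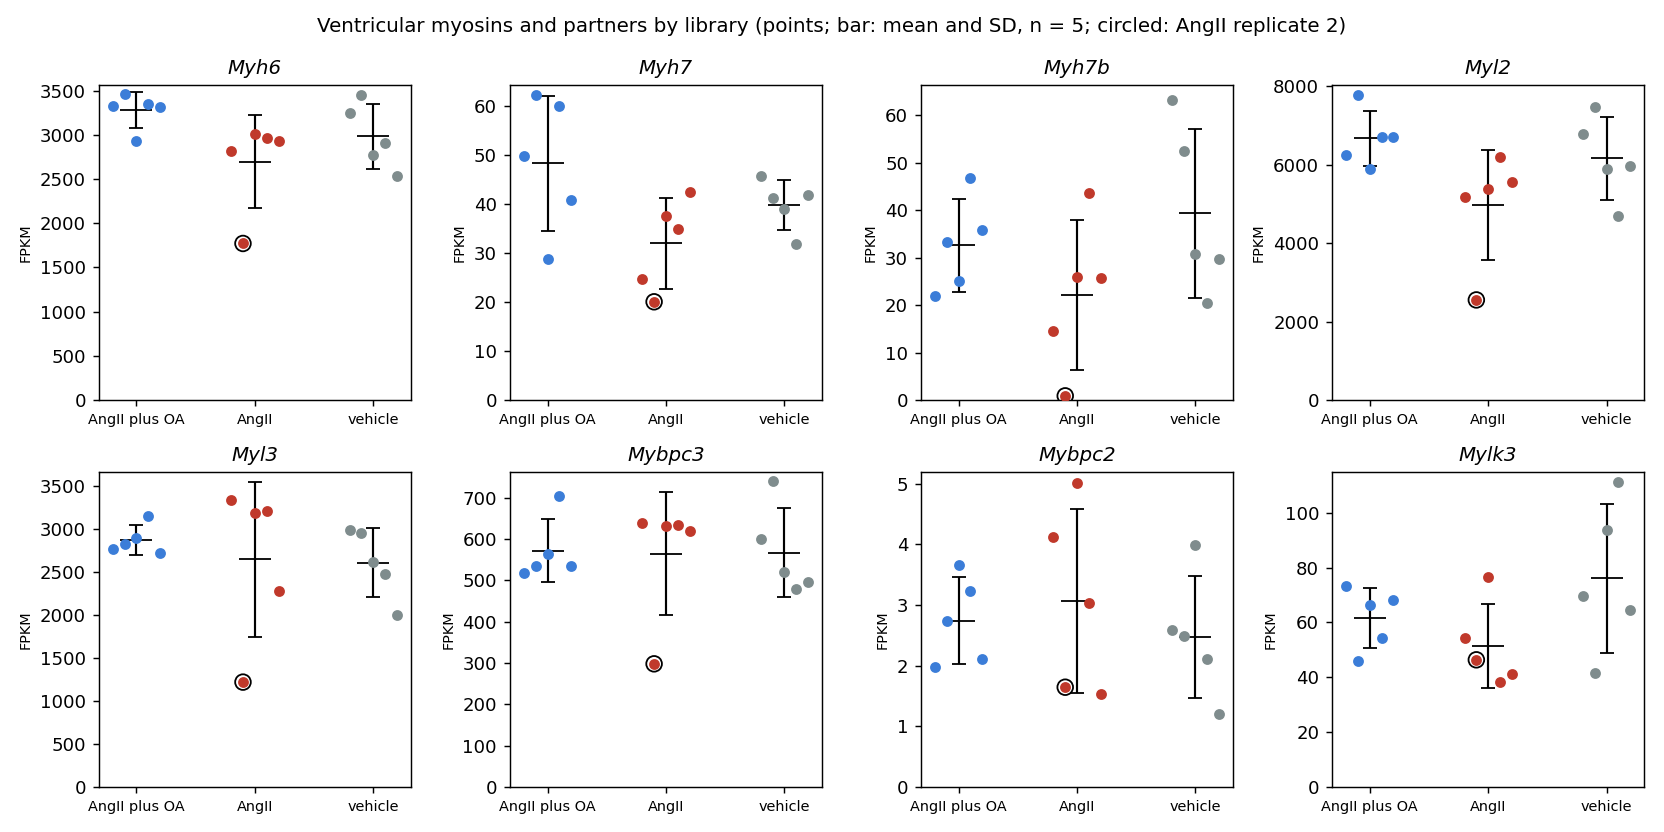
FPKM of the 8 genes in each library, with the mean and SD of each group of 5 and AngII replicate 2 circled. In every panel the groups overlap, and the circled library is lowest of all 15 for Myh6, Myh7, Myh7b, Myl2, Myl3 and Mybpc3.

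The Myh7 to Myh6 ratio, the usual index of the switch to the fetal heavy chain, was 1.49%, 1.80%, 0.981%, 1.79% and 1.23% in AngII plus OA hearts, 0.879%, 1.13%, 1.25%, 1.18% and 1.45% in AngII hearts and 1.40%, 1.19%, 1.41%, 1.10% and 1.65% in vehicle hearts. The means were 1.46% ± 0.354 in AngII plus OA hearts, 1.18% ± 0.207 in AngII hearts and 1.35% ± 0.214 in vehicle hearts (SD, n = 5 each). The groups overlapped, and AngII replicate 2, at 1.13%, lay within its group, so that the mean of AngII hearts was 1.19% ± 0.237 (SD, n = 4) without it. AngII minus vehicle was -0.20 on the log2 scale (2-sided exact permutation p = 0.254, adjusted over 3 comparisons 0.381). AngII plus OA minus AngII was 0.29 (exact permutation p = 0.183, adjusted 0.381), and AngII plus OA minus vehicle was 0.09 (exact permutation p = 0.651, adjusted 0.651). With 5 libraries a group, no exact p can be below 0.00794.

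Of the summed FPKM of the 3 heavy chains, Myh6 made up 97.6% ± 0.504 in AngII plus OA hearts, 98.1% ± 0.602 in AngII hearts and 97.4% ± 0.533 in vehicle hearts (SD, n = 5 each). Myh7 made up 0.867% to 1.75% over the 15 libraries and Myh7b 0.0499% to 1.88%. By these FPKM, the beta chain therefore stayed a small fraction of heavy chain RNA in all 15 hearts. The handling of reads shared by Myh6, Myh7 and a transcript on the opposite strand is not known. Such reads may enter these shares and the ratio, which was not tested.

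**Figure D2:**
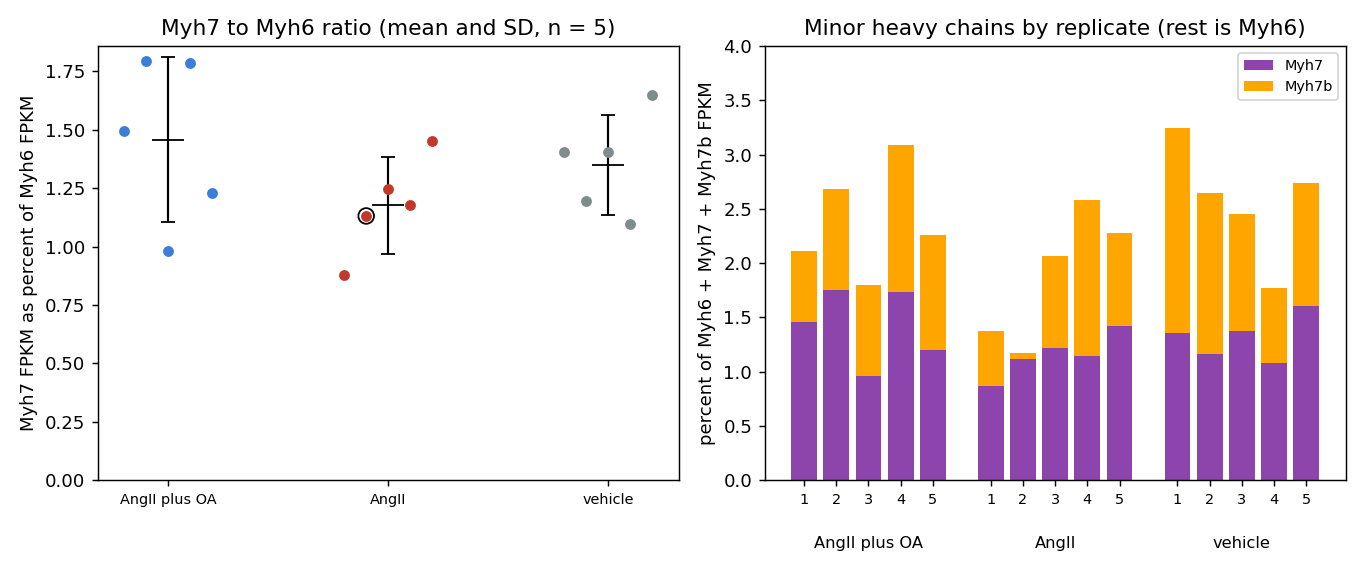
Left, Myh7 FPKM as a percent of Myh6 FPKM in each library, with the mean and SD of 5, and AngII replicate 2 circled. Right, percent of the summed FPKM of Myh6, Myh7 and Myh7b from Myh7 and Myh7b in each replicate, where both together reach at most a few percent and Myh7b is nearly missing from AngII replicate 2.

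Across libraries no relation of the Myh7 to Myh6 ratio to markers of atrial tissue or of the fetal programme passed the test. Its Pearson r was -0.20 with Myl7, the atrial light chain (Spearman rho -0.13, permutation p = 0.480 and 0.650), -0.04 with Nppa, the atrial natriuretic peptide gene (rho -0.06, p = 0.894 and 0.834), and -0.13 with Acta1, skeletal alpha actin (rho -0.08, p = 0.629 and 0.790), each over 15 libraries. With the 2 libraries farthest from the median of the marker left out, r was 0.16, 0.08 and 0.23. The adjusted p-values over the 6 relations computed were 0.719 to 0.894 for r and 0.834 for rho. Centred within groups, r was -0.20, 0.21 and 0.11.

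The table also holds a row for Mhrt, a long noncoding RNA that overlaps Myh7 on the opposite strand and whose product in mouse restrains the chromatin remodeller Brg1. Mhrt had 78.8, 74.6, 46.3, 87.1 and 90.3 FPKM in AngII plus OA hearts, 36.8, 19.9, 51.2, 49.1 and 59.2 FPKM in AngII hearts and 82.1, 93.0, 66.0, 57.2 and 86.5 FPKM in vehicle hearts. Only vehicle replicate 4 reached into the range of AngII hearts, and of AngII plus OA hearts only replicate 3. AngII minus vehicle was -0.88 on the log2 scale (SE 0.26, limma adjusted p = 0.103, and 0.0615 to 0.215 over the alternatives run), and AngII plus OA minus AngII was 0.84 (SE 0.26, limma adjusted p = 0.706), so neither was called. Without AngII replicate 2 these differences were -0.64 and 0.59.

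The row for the precursor of miR-208b, inside Myh7, had 424, 375, 202, 570 and 584 FPKM in AngII plus OA hearts, 159, 74.9, 259, 290 and 314 FPKM in AngII hearts and 449, 555, 319, 259 and 617 FPKM in vehicle hearts. It differed by -1.09 in AngII against vehicle hearts (SE 0.39, limma adjusted p = 0.164) and by 1.04 in AngII plus OA against AngII hearts (SE 0.39, limma adjusted p = 0.710), and by -0.75 and 0.70 without AngII replicate 2. The row is only 77 bases long and rested on 142 to 1174 reads. The precursor of miR-208a, inside Myh6, lay between 8.20 and 51.7 FPKM over the 15 libraries, and that of miR-499, inside Myh7b, was above 0 in 2 libraries, with 1 read each. Over the 15 libraries the miR-208b row averaged 363 FPKM, beside 40.0 FPKM for its host Myh7. The miR-208a row averaged 23.4 FPKM, beside 2985 FPKM for its host Myh6. The cause of these unlike levels was not tested. Reads in the precursor rows cannot be told from unspliced RNA of the host gene, and poly(A) libraries do not hold mature microRNAs. No source used here gives the strand setting or the handling of reads shared by neighbouring or opposite genes, so values of Myh6, Myh7, Mhrt and these rows may hold reads of one another.

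Myl2 had 6260.0, 7777, 5904, 6721 and 6715 FPKM in AngII plus OA hearts, 5186, 2555, 5391, 6194 and 5568 FPKM in AngII hearts and 6798, 7471, 5897, 4683 and 5980.0 FPKM in vehicle hearts. Of the AngII plus OA libraries, 4 exceeded every AngII library, and vehicle hearts overlapped both. AngII minus vehicle was -0.35 (95% interval -0.80 to 0.09, limma adjusted p = 0.413), and 0.01 after quantile normalization. For AngII plus OA minus AngII it was 0.48 (interval 0.04 to 0.92, limma adjusted p = 0.737) and AngII plus OA minus vehicle 0.13 (interval -0.32 to 0.57, limma adjusted p = 1.0). Without AngII replicate 2, AngII minus vehicle was -0.13 (interval -0.42 to 0.16) and AngII plus OA minus AngII 0.25 (interval -0.04 to 0.55).

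Myl3 had 2768, 2821, 2895, 3156 and 2722 FPKM in AngII plus OA hearts, 3338, 1219, 3192, 3210.0 and 2280.0 FPKM in AngII hearts and 2992, 2952, 2619, 2479 and 2002 FPKM in vehicle hearts. Here 3 AngII libraries were above every vehicle library and AngII replicate 2 was below all of them. AngII minus vehicle was -0.05 with all 15 libraries (95% interval -0.54 to 0.43, limma adjusted p = 0.931) and 0.20 without AngII replicate 2. Between AngII plus OA and AngII hearts it was 0.21 (limma adjusted p = 0.862), and -0.051 without that library. The Myl2 to Myl3 ratio was 233% ± 28.7 in AngII plus OA hearts, 194% ± 34.99 in AngII hearts and 239% ± 40.6 in vehicle hearts (SD, n = 5 each). It differed by -0.30 log2 units in AngII against vehicle hearts (exact permutation p = 0.103). The difference was 0.27 in AngII plus OA against AngII hearts (exact permutation p = 0.0952). Both p were 0.413 after adjustment over the 12 tests of the other ratios. In these 12, 1 test alone at the smallest possible exact permutation p of 0.00794 could not pass 0.05 after adjustment.

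Mybpc3, a gene often mutated in human hypertrophic cardiomyopathy, had 517, 535, 564, 704 and 536 FPKM in AngII plus OA hearts, 640, 298, 631, 635 and 619 FPKM in AngII hearts and 601, 741, 520, 480 and 495 FPKM in vehicle hearts. Of the AngII libraries, 4 lay close together and AngII replicate 2 was below every other library of the study. All 3 comparisons gave differences of -0.04 to 0.06 log2 units (limma adjusted p 0.937 to 1.0). Without AngII replicate 2, AngII minus vehicle was 0.17 and AngII plus OA minus AngII -0.15. Set against the sum of Myh6 and Myh7, Mybpc3 stood at 17.2% ± 2.48 in AngII plus OA hearts, 20.4% ± 2.21 in AngII hearts and 18.7% ± 1.76 in vehicle hearts (SD, n = 5 each). Between AngII plus OA and AngII hearts this ratio differed by -0.25 log2 units, the smallest p of these 12 tests (exact permutation p = 0.0556, adjusted 0.413). Without AngII replicate 2 it differed by -0.32 in that comparison (exact permutation p = 0.0397, adjusted 0.413) and by 0.19 in AngII against vehicle hearts (exact permutation p = 0.0397, adjusted 0.310), against 0.12 with all libraries.

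Mybpc2 had 1.97, 2.73, 3.66, 3.24 and 2.11 FPKM in AngII plus OA hearts, 4.12, 1.64, 5.01, 3.03 and 1.53 FPKM in AngII hearts and 2.59, 2.48, 3.98, 2.11 and 1.19 FPKM in vehicle hearts. It spread 4.19-fold from the lowest to the highest library without separating the groups, and its differences were -0.06 to 0.19 log2 units (limma adjusted p 0.751 to 1.0). With AngII replicate 2 left out, AngII minus vehicle was 0.33 and AngII plus OA minus AngII -0.19.

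Mylk3 had 73.1, 46.0, 66.3, 54.5 and 68.1 FPKM in AngII plus OA hearts, 54.4, 46.3, 76.6, 38.1 and 41.1 FPKM in AngII hearts and 69.6, 41.4, 93.8, 111.2 and 64.4 FPKM in vehicle hearts. The highest values were 2 vehicle hearts and the lowest 2 AngII hearts, with overlap between all groups. The difference of AngII minus vehicle was -0.53 (95% interval -1.04 to -0.01, limma adjusted p = 0.287), the difference with the smallest p of the 8 genes in that comparison, and -0.50 (interval -1.06 to 0.06) without AngII replicate 2. AngII plus OA minus vehicle was -0.24 (interval -0.76 to 0.27, limma adjusted p = 1.0). As a share of Myl2, its substrate, Mylk3 was 0.942% ± 0.240 in AngII plus OA hearts, 1.13% ± 0.494 in AngII hearts and 1.32% ± 0.692 in vehicle hearts (SD, n = 5 each), and the 3 comparisons of this ratio gave exact permutation p of 0.405 to 0.706, adjusted 0.810 to 0.867. The ratio without AngII replicate 2 differed by -0.38 log2 units in AngII against vehicle hearts and by 0.011 in AngII plus OA against AngII hearts.

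**Figure D3:**
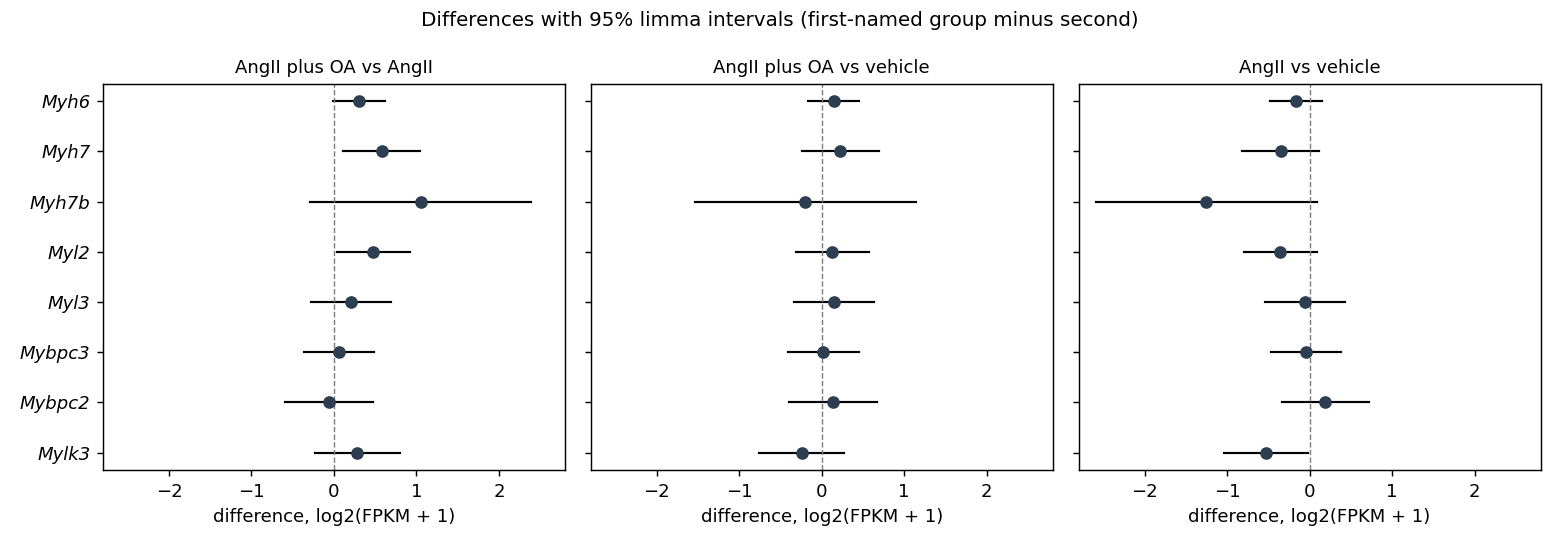
Differences of the 8 genes on the log2(FPKM + 1) scale, first-named group minus second, with 95% intervals from the limma fit over 15 libraries. The interval is widest for Myh7b, and Myh7 and Myl2 in AngII plus OA against AngII and Mylk3 in AngII against vehicle have intervals that do not reach 0 before adjustment.

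In AngII against vehicle hearts 7 of the 8 differences were negative, with a median of -0.26, beside 0.07 over all genes, but 5 were negative without AngII replicate 2 and with array quality weights, where Myl3 and Mybpc3 turned positive, and 5 to 7 over the alternatives run. AngII plus OA minus vehicle was positive for 6 of the 8 (median 0.13, all genes 0.02), and 4 to 6 over the alternatives. AngII plus OA minus AngII was positive for 7 of the 8 (median 0.30, all genes -0.05), and 5 to 8 over the alternatives. The last comparison shares its AngII libraries with the first. The cardiomyocyte markers listed above gave 9 of 10 negative in AngII against vehicle hearts. In AngII plus OA against AngII hearts 10 of 10 were positive, with 0 of 10 called in both comparisons. These counts were, without AngII replicate 2, 5 of 10 negative and 9 of 10 positive, and the medians of the 8 genes were -0.07 in AngII against vehicle and 0.21 in AngII plus OA against AngII hearts. Fibroblast markers moved beside them: 4 of 8 rose in AngII over vehicle hearts, against 1.27% of all genes, with a summed FPKM of 759 to 1250 in AngII hearts and 380 to 722 in vehicle hearts. Of the macrophage markers, 4 of 7 rose (3 of 7 without AngII replicate 2), against the same 1.27%, with sums of 221 to 368 in AngII hearts and 154 to 205 in vehicle hearts. In AngII plus OA hearts the sums were 564 to 1067 for fibroblast and 201 to 310 for macrophage markers. Against AngII hearts, 8 of 8 fibroblast and 6 of 7 macrophage markers were negative there, with 0 called. Without AngII replicate 2 these counts were 8 of 8 and 7 of 7. Their part in the differences of the 8 genes was not tested.

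Between the 8 genes, levels moved together across hearts more for some pairs than for others, and much of that came with AngII replicate 2. Pearson r of log2(FPKM + 1) between Myh6 and Myl2 was 0.92 over 15 libraries and 0.71 over the 14 without it. For Myh7b and Myl2 it was 0.94 and 0.73, and for Myh7 and Myl2 0.79 and 0.70. Myl3 and Mybpc2 gave 0.66 and 0.79. Mylk3 gave no high value with them, with r of -0.05 and -0.50 to Myl2 and -0.19 and -0.64 to Mybpc3. Of the pairs tested, Myh6 and Mybpc3 had r = 0.80 over 15 libraries (permutation p = 0.00644, adjusted over 6 relations 0.0386, with Spearman rho 0.47, adjusted p = 0.478). However, r was 0.37 without AngII replicate 2 and 0.22 with vehicle replicate 5 left out as well, so the relation rests mostly on AngII replicate 2. Centred within groups, with all 15 libraries, r was 0.89 for this pair. Myl2 and Myl3 gave r = 0.77 (permutation p = 0.0185, adjusted 0.0555; rho 0.28, adjusted p = 0.834) and 0.19 without the 2 libraries farthest from the median. Myl2 and the mitochondrial share gave r = -0.33 (permutation p = 0.240, adjusted 0.480, with rho -0.19, adjusted p = 0.834). Also uncentred, this r was -0.29 without the 2 farthest and -0.14 without AngII replicate 2. When centred within groups it was -0.72 with all 15 libraries, and the centred value was not computed without AngII replicate 2.

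**Figure D4:**
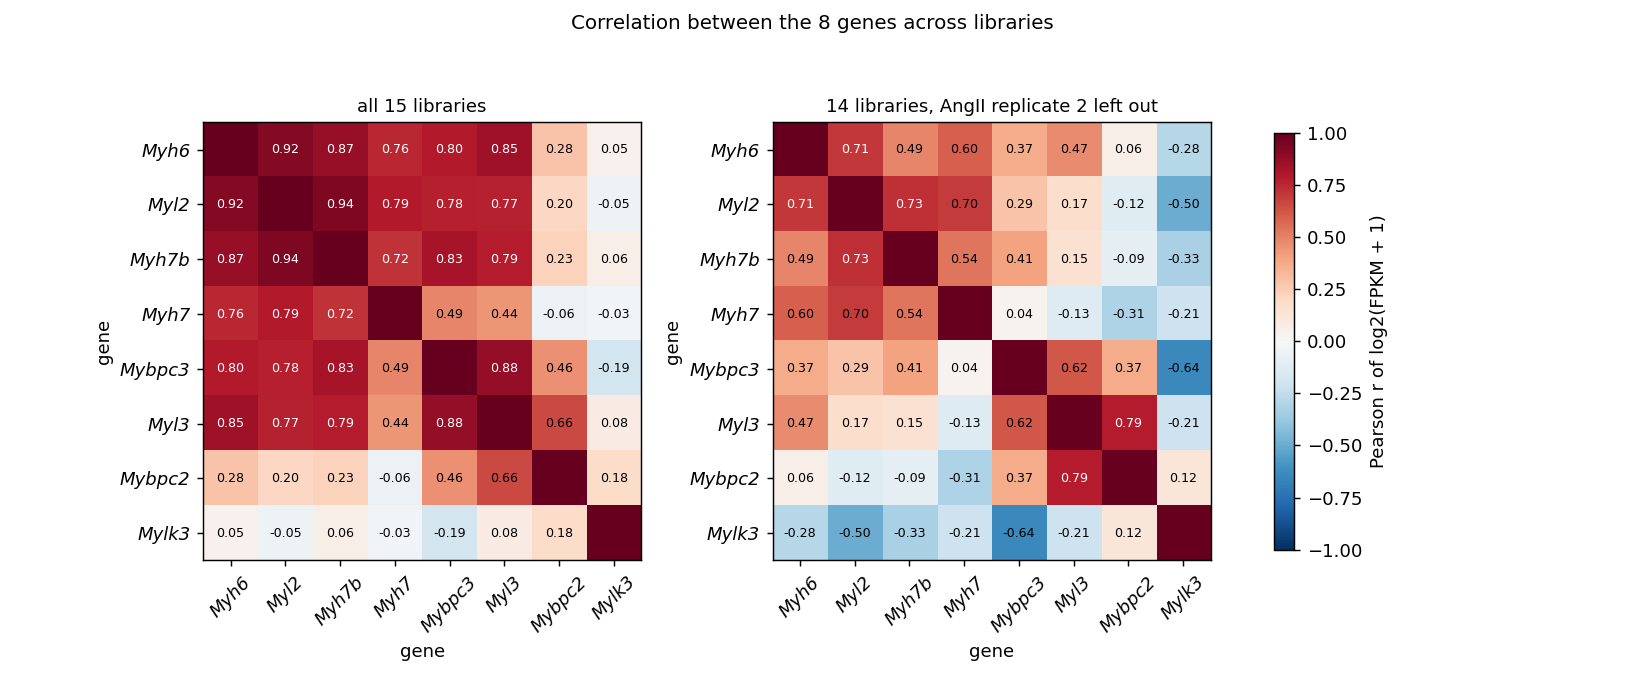
Pearson r of log2(FPKM + 1) between each pair of the 8 genes over all 15 libraries (left) and over 14 libraries without AngII replicate 2 (right). The block of high values around Myh6, Myl2 and Myh7b is paler on the right, and Mylk3 turns to negative values with Mybpc3 and Myl2.

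The genes most like each of the 8 were ranked by Pearson r of log2(FPKM + 1) over the 15 libraries, as a description. For Myh6 they were Myl2 (r = 0.92), the tropomyosin gene Tpm1 (0.91) and Josd2 (0.91). Without AngII replicate 2 these were 0.71, 0.84 and 0.63. For Myh7 they were Adcy6, an adenylyl cyclase of heart (0.86), Tubgcp6 (0.85) and Zfp446 (0.85), with 0.85, 0.77 and 0.79 without that library. Those of Myh7b were Hspa12b (0.94), the muscle kinase gene Srpk3 (0.94) and Myl2 (0.94), with 0.66, 0.71 and 0.73 without that library. Srpk3 (0.96), Josd2 (0.94) and Myh7b (0.94) led for Myl2, with 0.85, 0.77 and 0.73 without that library. Those of Myl3 were Cisd1, of the outer mitochondrial membrane (0.95), the mitochondrial creatine kinase gene Ckmt2 (0.94) and the mitochondrial elongation factor gene Tufm (0.94), each 0.79 to 0.80 without AngII replicate 2. Mybpc3 was followed by Pnkd (0.96), Aars2 (0.95) and Arhgef15 (0.94), with 0.90, 0.87 and 0.83 without that library. Mybpc2 was followed by Serhl (0.87), Phb2 (0.85) and the Z-disc gene Myot (0.84), with 0.859, 0.835 and 0.825 without that library. Mylk3 ran with Vwa7 (0.95), the sarcoplasmic calcium pump gene Atp2a2 (0.92) and Maob (0.92), and these r values were 0.95, 0.92 and 0.92 without AngII replicate 2.

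Among other myosins and binding proteins of striated muscle, 5 of 14 listed genes passed the filter, and 1 rose in AngII over vehicle hearts, against 1.27% of all genes. It was Myl1, the essential light chain of fast skeletal muscle. Myl1 had 20.1, 40.03, 30.1, 36.0 and 25.5 FPKM in AngII plus OA hearts, 37.8, 80.4, 37.1, 51.3 and 44.8 FPKM in AngII hearts and 12.2, 15.7, 19.3, 24.5 and 32.3 FPKM in vehicle hearts. Every AngII heart was above every vehicle heart, as for 3.13% of all genes, and AngII plus OA hearts overlapped both. The difference of AngII minus vehicle was 1.25 log2 units (SE 0.26, limma adjusted p = 0.0304), and 1.07 (limma adjusted p = 0.0426) without AngII replicate 2. In the 10 fits that left out 1 library of the comparison the difference was 1.07 to 1.42, and the call was lost in 6 of them. The call was also lost with quantile normalization (1.12) and without mitochondrial genes in the scaling (1.16, and 0.96 without AngII replicate 2 as well). It was lost too with no filter on low values and with only the compared libraries in the fit. The other 10 skeletal muscle markers summed to 3.29 to 5.11 FPKM in AngII plus OA hearts, 4.23 to 8.02 FPKM in AngII hearts and 3.84 to 5.79 FPKM in vehicle hearts, so those sums overlapped.

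Myl7 encodes the light chain that marks atrial muscle. It had 84.2, 1.05, 50.2, 411 and 277 FPKM in AngII plus OA hearts, 21.8, 1446, 119, 412 and 1.49 FPKM in AngII hearts and 1.56, 116, 140.2, 407 and 451 FPKM in vehicle hearts. The libraries of each group thus ranged from almost none to high levels, and the groups overlapped. Differences between groups were -0.59 in AngII plus OA against vehicle, -0.40 in AngII plus OA against AngII and -0.19 in AngII against vehicle hearts (SE 1.80, limma adjusted p 0.971 to 1.0), and those of Myl4, the other atrial light chain, were -0.45, -0.50 and 0.05 (SE 1.39, limma adjusted p 0.957 to 1.0). Without AngII replicate 2 the differences in AngII plus OA against AngII and in AngII against vehicle hearts were 0.63 and -1.22 for Myl7 and 0.41 and -0.86 for Myl4, with none called. As a percent of Myl2, Myl7 had a median of 1.34% in AngII plus OA hearts, 2.20% in AngII hearts and 2.38% in vehicle hearts (exact permutation p 0.627 to 0.929 in the 3 comparisons, adjusted 0.867 to 0.929). That ratio also changed sign without AngII replicate 2, to 0.38 in AngII plus OA against AngII and -1.15 in AngII against vehicle hearts on the log2 scale.

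Of 30 regulators of cardiac myosin genes, 29 passed the filter, and 1 rose in AngII over vehicle hearts (1.27% of all genes did), with 0 lower (0.236% of all genes). This was Dio2, which encodes the type 2 deiodinase that makes active thyroid hormone inside cells, a hormone that raises Myh6 and lowers Myh7 in rodent heart. Dio2 had 1.79, 0.798, 1.80, 1.87 and 0.843 FPKM in AngII plus OA hearts, 2.10, 2.64, 1.65, 3.79 and 4.62 FPKM in AngII hearts and 0.303, 0.651, 0.867, 0.662 and 0.847 FPKM in vehicle hearts. Every AngII heart was above every vehicle heart, as for 3.13% of all genes. Of the AngII plus OA hearts, 3 lay near the low end of AngII hearts and 2 within the vehicle range. The difference of AngII minus vehicle was 1.21 log2 units (SE 0.20, limma adjusted p = 0.0130), it held its call in all 10 fits that left out 1 library (1.07 to 1.34) and was 1.97 with a pseudocount of 0.1 in place of 1. The counts were low, with 46 to 129 recovered reads per vehicle library and 271 to 735 per AngII library. Mhrt and the cardiac factor gene Nkx2-5, the most abundant of the list, differed by 0.84 and 0.07 in AngII plus OA against AngII hearts and by -0.04 and 0.06 in AngII plus OA against vehicle hearts (limma adjusted p 0.706 to 1.0).

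**Figure D5:**
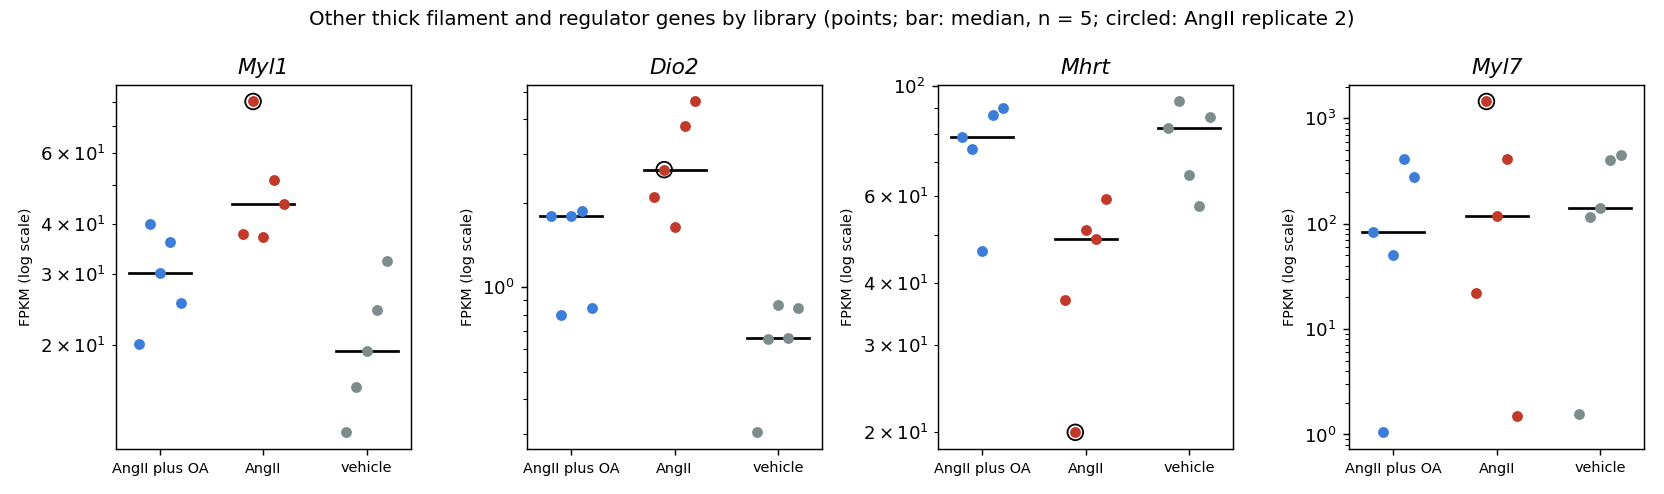
FPKM on a log scale in each library for Myl1, Dio2, Mhrt and Myl7, with the median of each group of 5 as a bar and AngII replicate 2 circled. Myl1 and Dio2 separate AngII from vehicle hearts, Mhrt overlaps by 1 vehicle heart, and Myl7 scatters within every group.

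The thin filament, on which the heads pull, had 15 of 18 listed genes tested, and 1 rose in AngII over vehicle hearts, with 0 lower, against 1.27% and 0.236% of all genes. Acta1, the fetal and skeletal actin gene, had 138, 1266, 476, 638 and 85.8 FPKM in AngII plus OA hearts, 1793, 260, 976, 1405 and 592 FPKM in AngII hearts and 126.1, 116, 129, 89.9 and 74.4 FPKM in vehicle hearts. All AngII hearts exceeded all vehicle hearts, as for 3.13% of all genes (2.96 log2 units, SE 0.64, limma adjusted p = 0.0335). However, the difference was 2.68 to 3.38 in the 10 fits that left out 1 library, and the call was lost in 8 of them. It was also lost with no filter on low values. Reads shared with other actin genes cannot be told apart.

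In 3 further lists no gene was called in AngII against vehicle hearts, where 16.6% of all genes had an unadjusted limma p under 0.05. Smooth muscle and nonmuscle myosins were all tested (9 of 9, with 1 at an unadjusted limma p under 0.05), and their most abundant genes, the light chains Myl6 and Myl12a, differed by 0.39 and 0.31 (limma adjusted p = 0.325 and 0.392). Of titin, M-band and assembly genes, 14 of 14 were tested (1 at an unadjusted limma p under 0.05), and the chaperone gene Hsp90ab1 and the M-band gene Myom1 differed by -0.04 and 0.30 (limma adjusted p = 0.945 and 0.379). Kinases, phosphatase subunits and calmodulins that set myosin phosphorylation had 18 of 19 tested (2 at an unadjusted limma p under 0.05), and Calm2 and Ppp1ca differed by 0.26 and -0.02 (limma adjusted p = 0.398 and 0.970). In AngII plus OA against vehicle and against AngII hearts no gene of any of these lists was called.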

How the data were processed

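Gene expression was measured in 15 libraries from the hearts of 3 groups of 5 mice, grouped by sample title. The deposited table holds FPKM per gene, computed by the authors. Reads were aligned with HISAT2 2.0.4 to the build mm8, per the submitters' processing notes. The counter, annotation and strand setting were not given in the sources used here. Symbols and lengths came from GENCODE M21, which matched 36464 of 36653 identifiers and is on another build (GRCm38), as are the RefSeq sequences. Reads were recovered from FPKM and exon length: 86.3% to 87.2% of values under 1000 reads came within 0.02 of a whole number.

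Changes were tested with limma 3.58.1 (R 4.3.3, intensity trend, 1 fit over all 15 libraries) on log2(FPKM + 1) for 13121 genes with a mean of at least 0.5 FPKM, tested on simulated data. Differences on this scale understate changes of low genes. Ratios were compared by exact permutation and relations with 100000 resamples (scipy 1.17.1), with Benjamini-Hochberg adjustment and a threshold of 0.05. Alternatives were another pseudocount, other filters and scalings, array weights, a replicate block and leaving out each library. Beyond the 8 genes, the rule named the 3 most similar genes of each, and of each list up to 4 called genes or else the 2 most abundant. The genes and lists were chosen with earlier results of these data known. The labels call the libraries biological replicates.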

Additional observations from a re-analysis of the deposited data

Results flagged for a closer look

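In 39 groups of 5 libraries examined (the levels and ratios of the genes described above), a library stood apart from the other 4 of its group in 6, and chance flags about 1 in 20 groups. Of these, 4 were AngII replicate 2: Myh6 at 1771 FPKM (other AngII hearts 2818 to 3004), Myl2 at 2555 FPKM (5186 to 6194), Mybpc3 at 298 FPKM (619 to 640) and the log2 ratio of Mybpc3 to Myh6 plus Myh7 at -2.59 (-2.27 to -2.15). The array quality weight of that library was 0.155. The other flags were Myh6 at 2929 FPKM in AngII plus OA replicate 3 (other AngII plus OA hearts 3313 to 3459) and Mybpc3 at 704 FPKM in AngII plus OA replicate 4 (517 to 564). The causes were not tested.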

How the results depend on the processing

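None of the 8 genes was called in any of the 3 comparisons under any alternative run, with the smallest limma adjusted p at 0.124, and the Myh7 to Myh6 ratio kept its direction in the 13 alternatives run for each of its comparisons. The 197 genes called in AngII against vehicle became 72 with no filter on low values, 109 with quantile normalization, 114 with mitochondrial genes left out of the scaling, 70 with only the libraries compared in the fit, and 111 with that scaling and AngII replicate 2 left out, an alternative chosen after seeing the data. Other settings gave 281 with array quality weights, 202 with a pseudocount of 0.1 and 160 with a median shift. With a mean FPKM of at least 5, 138 of 5833 genes tested were called. With the replicate block the 197 genes became 38. Same-numbered libraries did not consistently deviate together (correlations of -0.350 to 0.435, with 2 of 5 over 0.1 in each comparison). Replicate 3 alone was positive in all 3 comparisons (0.211, 0.256 and 0.435). The numbers were therefore not taken as pairs. The block changed no call of the 8 genes, while Acta1 lost its call (limma adjusted p = 0.0664). For ratios the block was a sign flip of 5 pairs, whose smallest exact p is 0.0625, so it could call no ratio. Leaving out 1 library gave 49 (AngII replicate 5) to 425 (AngII replicate 3) genes. For AngII plus OA against AngII it gave 0 to 1.

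Signs turned in differences that were not called. In AngII against vehicle hearts, array weights gave Myl3 0.23, Mybpc3 0.16, Hsp90ab1 0.17 and Ppp1ca 0.23, the scaling without mitochondrial genes and AngII replicate 2 gave Myl3 0.089, Mybpc3 0.059 and Hsp90ab1 0.055, and quantile normalization gave Myl2 0.0075. In AngII plus OA against vehicle hearts, Mybpc3 was -0.15 with quantile normalization, -0.00516 with a median shift and -0.082 without mitochondrial genes in the scaling. In AngII plus OA against AngII hearts, Mybpc3 and Myl3 were -0.14 and -0.085 with array weights and -0.14 and -0.039 with the scaling that also left out AngII replicate 2, and Mybpc2 was 0.00446 with a median shift. The causes were not tested.

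Leaving out 1 library at a time moved log2 differences across 0 in these ranges. In AngII against vehicle hearts they were -0.10 to 0.17 for Mybpc3, -0.16 to 0.20 for Myl3, -0.14 to 0.17 for Hsp90ab1, -0.15 to 0.11 for Ppp1ca, -0.45 to 0.070 for the Mylk3 to Myl2 ratio and -1.34 to 1.62 for the Myl7 to Myl2 ratio. In AngII plus OA against vehicle hearts they were -0.22 to 0.20 for the miR-208b row, -0.14 to 0.12 for Mhrt, -0.058 to 0.12 for Mybpc3, -0.017 to 0.28 for Mybpc2, -0.11 to 0.059 for the Myl2 to Myl3 ratio and -2.25 to 0.72 for the Myl7 to Myl2 ratio. In AngII plus OA against AngII hearts they were -0.21 to 0.11 for Mybpc2, -0.15 to 0.12 for Mybpc3, -0.051 to 0.31 for Myl3, -0.38 to 0.011 for the Mylk3 to Myl2 ratio and -2.38 to 0.57 for the Myl7 to Myl2 ratio. Mybpc2 rested on 106 to 511 reads and the miR-208a row on 18 to 109, which limits their precision.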
